A study of Danio rerio with 6 samples.

Results

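Meis genes encode homeodomain proteins of the TALE class, which take their name from the 3 extra amino acids in a loop of the homeodomain. The Meis genes were measured in the kidney marrow, where adult zebrafish form blood, of tet2 mutant and wild type fish. The count tables hold 31484 genes, and 5 of them were taken as Meis genes by name: meis1a, MEIS2 and meis3 by the symbol itself, and meis1b and meis2b through RefSeq synonyms, since the name table calls the meis1b gene MEIS1 and RefSeq lists meis2 as a synonym of meis2b. The set was selected on its measured difference between the genotypes in these same libraries, with meis3 and MEIS2 in opposite directions. Genotype differences of the Meis genes are therefore given as a description. Where the number of Meis genes called by a tool is set beside the share of all genes, nothing is read from it.

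The 6 libraries came from fish of 3 to 5 months. There were 3 libraries of tet2 -/- fish, called tet2 mutant, and 3 of tet2 wt/wt fish, called wild type. Marrow was dispersed by pipetting and strained at 70 micron, and no sort of the cells is named. The allele, the sex and the number of fish behind a library are not described, so the replicate spread is that between libraries.

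Meis proteins bind DNA together with Pbx proteins, another TALE family, and with Hox proteins. A Pbx partner is bound through the amino-terminal region of Meis, and Meis binding also favours the presence of Pbx in the nucleus. In mice, Meis1 is needed to maintain blood stem cells and to form platelet precursors, and with Hoxa9 it drives acute myeloid leukaemia. In zebrafish, meis1 acts in the formation of the first blood cells and of vessels. Meis2 is best known from limb, heart and neural crest, and meis3 from the patterning of the hindbrain and from gut neurons. Tet2 oxidises 5-methylcytosine in DNA, and its loss is frequent in human myeloid disease.

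Library totals ran from 46637322 to 49229143 counts in the tet2 mutant and from 41285460 to 47228518 in wild type. The targeted gene TET2 (ENSDARG00000076928) had 51.1, 45.1 and 30.5 CPM (counts scaled to the library total, with TMM factors) in mutant libraries 1, 2 and 3, against 48.1, 52.5 and 48.1 CPM in wild type. The mutant-minus-wild-type log2 difference was -0.23 (SE 0.20; edgeR quasi-likelihood test, Benjamini-Hochberg adjusted p = 0.696), and without a description of the allele this level does not check the labels. Blood cell markers were abundant in every library, with summed neutrophil markers between 9415 and 19926 CPM. The suspension also held kidney tubule, vessel, stromal, muscle and egg transcripts, whose sums are given beside the Meis values below. In bulk RNA, fewer cells of a type and less RNA per cell cannot be told apart.

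The Meis genes did not differ in 1 common direction. MEIS2 was 1.95-fold lower in the mutant libraries, meis3 was 2.84-fold higher, and in each of these the 3 mutant libraries lay on 1 side of the 3 wild type libraries. The most abundant member, meis1b, was lower on average but with overlapping libraries. The low members meis1a and meis2b showed no separation. Coordinates are for whole genes on GRCz10, taken from the count tables, and all 5 genes passed the filter on low counts.

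MEIS2 (ENSDARG00000098240) lies on the plus strand of chromosome 17 from 52736268 to 52835080, with 14 exon blocks of 3445 bases in all. It received 225, 325 and 252 counts in the tet2 mutant libraries, against 379, 500 and 542 counts in wild type. These equal 4.73, 6.98 and 4.98 CPM in the mutant, against 8.63, 11.9 and 11.98 CPM in wild type. Mutant library 2, the highest of its genotype, stayed below wild type library 1, the lowest of the other. The means were 5.57 ± 1.23 CPM in the mutant and 10.9 ± 1.92 CPM in wild type (SD, n = 3 each), with a log2 fold change of -0.96 (SE 0.24). Between libraries of the same replicate number, the difference (mutant minus wild type, log2 CPM) was -0.87, -0.77 and -1.27.

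The gene in the opposite direction was meis3 (ENSDARG00000002795), on the minus strand of chromosome 15 from 6840538 to 6866520, with 14 exon blocks of 2774 bases. Its counts were low: 72, 119 and 127 in the tet2 mutant libraries, against 37, 32 and 32 in wild type. In CPM these were 1.52, 2.56 and 2.51 in the mutant, against 0.842, 0.764 and 0.707 in wild type. The wild type libraries were close to each other, and the mutant libraries all stood above them, number 1 the least. The means were 2.19 ± 0.588 CPM in the mutant and 0.771 ± 0.0678 CPM in wild type (SD, n = 3 each), with a log2 fold change of 1.505 (SE 0.31). Same-numbered libraries differed by 0.85, 1.74 and 1.83 (log2 CPM, mutant minus wild type).

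The meis1b gene (ENSDARG00000012078) spans 5361965 to 5440976 on the minus strand of chromosome 13, with 13 exon blocks of 3053 bases. The counts were 808, 889 and 756 in the tet2 mutant, against 1207, 904 and 801 in wild type. Scaled, they were 17.0, 19.1 and 14.9 CPM in the mutant, against 27.5, 21.6 and 17.7 CPM in wild type. The genotypes overlapped, since mutant library 2 exceeded wild type library 3. The means were 17.0 ± 2.08 CPM in the mutant and 22.3 ± 4.92 CPM in wild type (SD, n = 3 each), a log2 fold change of -0.39 (SE 0.20), with same-number differences of -0.69, -0.18 and -0.24.

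The paralog meis1a (ENSDARG00000002937), on the plus strand of chromosome 1 from 50831295 to 50881287 with 16 exon blocks of 2982 bases, was much less abundant. It had 33, 53 and 143 counts in the tet2 mutant libraries, against 54, 38 and 66 in wild type. The values were 0.694, 1.14 and 2.83 CPM in the mutant, against 1.23, 0.908 and 1.46 CPM in wild type. Mutant library 3 alone stood high, and the other mutant libraries lay below or within the wild type range. The log2 fold change of 0.37 (SE 0.54) was -0.40 without mutant library 3. That library also held the most summed egg and germ cell markers (3642 CPM, against 595 and 381 in the other mutant libraries), whose part in the meis1a value was not tested.

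The gene meis2b (ENSDARG00000077840), the paralog of MEIS2 on the minus strand of chromosome 20 from 10111869 to 10133202, with 14 exon blocks of 3370 bases, was the least abundant. Its counts were 15, 49 and 46 in the tet2 mutant, against 17, 31 and 37 in wild type. The CPM values were 0.316, 1.05 and 0.909 in the mutant, against 0.387, 0.740 and 0.818 in wild type. In each genotype library 1 was the lowest, and the genotypes overlapped. The log2 fold change was 0.23 (SE 0.53), and it was -0.080 without mutant library 2 and -0.048 without wild type library 1.

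**Figure D1:**
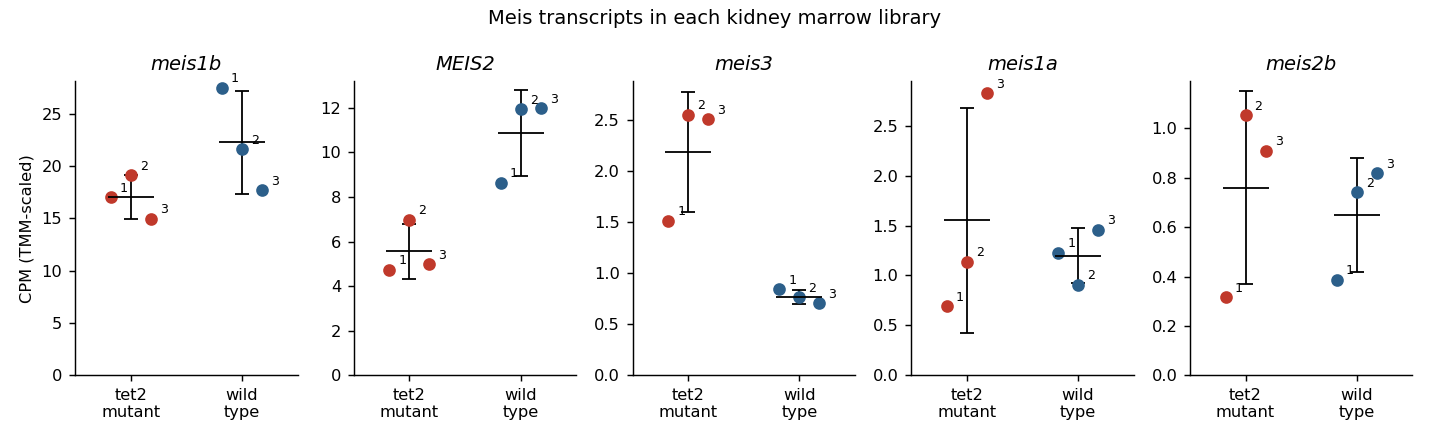
Level of each Meis gene (CPM, TMM-scaled, each panel with its own axis from 0) in the 3 tet2 mutant and the 3 wild type libraries. Points are libraries with their replicate numbers, and bars are the mean and SD. MEIS2 is lower and meis3 higher in every mutant library, while the points of meis1b, meis1a and meis2b overlap between genotypes.

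None of the 5 Meis genes had an adjusted p under 0.05 in the edgeR fit over all 21893 tested genes, where 0.301% of genes did (66 genes, 0.0959% higher and 0.206% lower in the mutant). MEIS2 and meis3 were past an unadjusted p of 0.05, as were 11.9% of all tested genes (5.0% higher, 6.93% lower). They were also the 2 members without overlap between genotypes, as were 18.2% of all tested genes (7.88% with every mutant library higher, 10.3% with every mutant library lower). DESeq2 called both of them, where it called 1.67% of its genes as higher and 2.46% as lower, 4.13% in all. Limma-voom called neither, where it called 0.343% of genes (0.11% higher, 0.233% lower). Blocking edgeR by replicate number called neither, where it called 2.14% of genes (1.17% higher, 0.964% lower).

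**Figure D2:**
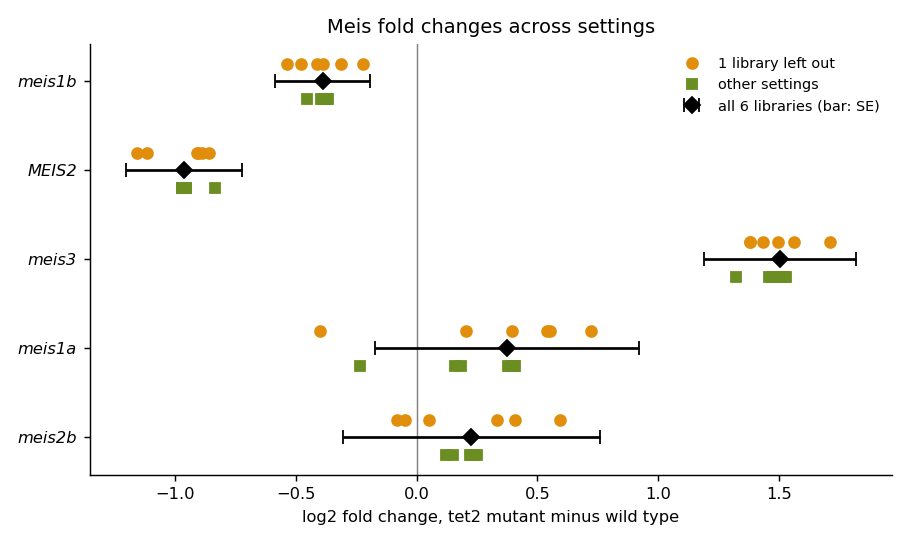
Fitted log2 fold change (tet2 mutant minus wild type) of each Meis gene with all 6 libraries (diamond, bar: SE), with 1 library left out (circles) and under the other settings of normalization, filter, tool, block and libraries (squares). MEIS2 stays between -1.16 and -0.84 and meis3 between 1.32 and 1.71, whereas meis1a and meis2b cross 0 when single libraries are left out.

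Within the marrow, meis1b and MEIS2 were the higher members and meis2b the lowest, compared per length as RPKM (reads per kilobase of the tables' gene length, on the CPM scale). Averaged over the 6 libraries, meis1b had 6.43 ± 1.45 RPKM, MEIS2 2.38 ± 0.939, meis3 0.534 ± 0.312, meis1a 0.461 ± 0.254 and meis2b 0.209 ± 0.0869 (SD, n = 6). The 4 neighbouring pairs in this order were compared within each library by an exact two-sided sign-flip permutation test, whose smallest p over 6 libraries is 0.03125. The order was read from the same values. With same-numbered libraries averaged, only 3 values can be flipped and the smallest p is 0.25, so no pair could pass (exact p = 0.25, 0.25, 0.75 and 0.25 in the order below).

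The level of meis1b exceeded that of MEIS2 in 6 of 6 libraries, by 1.503 ± 0.50 on the log2 RPKM scale (SD, n = 6; exact p = 0.03125, adjusted over the 4 pairs 0.0417). MEIS2 exceeded meis3 in 6 of 6 libraries by 2.27 ± 1.38 (same exact p and adjusted p), although the gap was 1.05 ± 0.34 in the tet2 mutant and 3.49 ± 0.39 in wild type (SD, n = 3 each). A narrower gap in the mutant follows from the choice of the set, and nothing is read from it. The pair meis3 and meis1a did not differ beyond their spread, and meis3 was the higher in 2 of 6 libraries. Their log2 RPKM difference was 0.15 ± 0.90 (SD, n = 6; exact p = 0.75, adjusted 0.75), with 0.81 ± 0.76 in the mutant and -0.51 ± 0.40 in wild type, so that meis3 ranked above meis1a by the mutant mean and below it by the wild type mean. At the low end, meis1a exceeded meis2b in 6 of 6 libraries by 1.12 ± 0.66 (exact p = 0.03125, adjusted 0.0417). With any 1 library left out, the exact test of a pair allows no p under 0.0625.

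**Figure D3:**
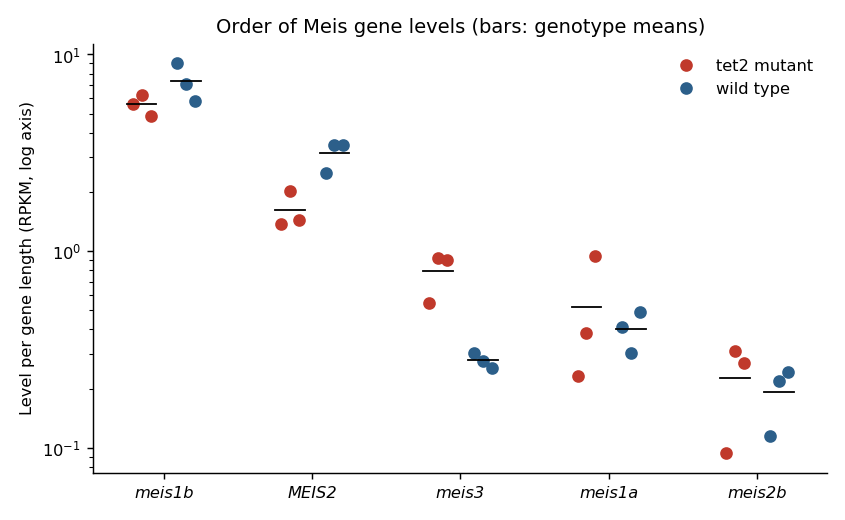
Level per gene length (RPKM, log axis) of the Meis genes in tet2 mutant and wild type libraries. Points are libraries and bars are genotype means. The gap between MEIS2 and meis3 is narrower in the mutant, where meis3 had 0.791 ± 0.212 RPKM, against 0.278 ± 0.0244 RPKM in wild type. The set was chosen with MEIS2 and meis3 in opposite directions, so the narrower gap follows from the choice.

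Seen as a share of all Meis counts in a library, meis3 was the member whose mutant libraries all stood apart from wild type. The set was chosen on the differences of meis3 and MEIS2, so their shares are a description. MEIS2 took 19.5%, 22.6% and 19.0% of the Meis counts in tet2 mutant libraries 1, 2 and 3, against 22.4%, 33.2% and 36.7% in wild type. The MEIS2 shares overlapped, since mutant library 2 lay just above wild type library 1. The share of meis3 was 6.24%, 8.29% and 9.59% in the mutant, against 2.18%, 2.13% and 2.17% in wild type. The Wilson 95% interval of the meis3 share ran from 4.99% to 7.79% in mutant library 1 and from 1.54% to 3.04% in wild type library 3, which shows its counting precision in single libraries and nothing about the spread between them.

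The largest share belonged to meis1b, with 70.1%, 62.0% and 57.1% in the tet2 mutant, against 71.3%, 60.1% and 54.2% in wild type, and it overlapped between genotypes. The ratio of MEIS2 to meis3 (RPKM over RPKM) was 2.52, 2.199 and 1.60 in the mutant, against 8.25, 12.6 and 13.6 in wild type. Since the set was chosen with MEIS2 and meis3 in opposite directions, a lower ratio in the mutant follows from the choice. All 5 genes together had 24.3, 30.8 and 26.2 CPM in the mutant, against 38.6, 35.9 and 32.7 CPM in wild type, a sum set mostly by meis1b and MEIS2. Intervals cover counting error only. How reads shared between the Meis paralogs were treated is not given in the sources used here, so the split between paralogs is uncertain where their sequences match.

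Among the binding partners, 2 Pbx genes had means above that of meis1b, which had 5.57 ± 0.680 RPKM in the tet2 mutant and 7.29 ± 1.61 RPKM in wild type. The 2 Pbx genes were pbx2 (ENSDARG00000019717), with 9.23 ± 1.38 RPKM in the tet2 mutant and 11.3 ± 0.913 RPKM in wild type, and pbx4 (ENSDARG00000052150), active early in the zebrafish embryo, with 9.38 ± 1.13 RPKM in the mutant and 7.99 ± 0.308 RPKM in wild type (SD, n = 3 each). None of the 6 Pbx genes passed the edgeR test (0 of 6 also with DESeq2, limma-voom and the block). At an unadjusted p of 0.05, 1 was lower and 0 higher, where 6.93% of all tested genes were lower. The lower gene was pbx1a (ENSDARG00000100494), with 6.71, 6.16 and 6.76 CPM in the mutant, against 8.81, 8.57 and 9.35 CPM in wild type, and its log2 fold change was -0.44 (SE 0.16; edgeR adjusted p = 0.348). All its mutant libraries lay below the wild type ones, as did those of 10.3% of all tested genes. The log2 fold change of pbx2 was -0.29 (SE 0.14; edgeR adjusted p = 0.499), and the median of the 6 was -0.15, beside 0.02 over all genes tested. Of the Pbx genes, pbx4, PBX3 and pbx1b were named after their values were seen.

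PBX3 was low, with 0.298 RPKM in the tet2 mutant and 0.420 RPKM in wild type, and pbx1b had 2.98 RPKM in the mutant and 3.01 RPKM in wild type. The summed Pbx level overlapped between genotypes, with 97.6, 80.7 and 89.9 CPM in the mutant, against 91.3, 98.4 and 90.9 CPM in wild type.

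Other TALE homeobox genes, which include Pknox genes (the closest relatives of Meis, which also bind Pbx), Tgif repressors and Irx genes, had 13 matched genes and 10 tested. None passed, at an adjusted or an unadjusted p of 0.05 in edgeR, nor with the other tools. Of all tested genes, 0.301% passed in edgeR and 11.9% were past the unadjusted p. In this list 5 genes had a fold change above 0 and 5 below, with a median log2 fold change of -0.23. Their smallest p-values belonged to MKX (ENSDARG00000075450), a tendon regulator in mammals, and to IRX1 (ENSDARG00000101831), known from kidney and heart patterning. MKX had 2.61 ± 0.263 CPM in the tet2 mutant and 1.91 ± 0.308 CPM in wild type (SD, n = 3 each, log2 fold change 0.45, SE 0.25, edgeR adjusted p = 0.542). Every MKX mutant library lay above the wild type ones, as for 7.88% of all tested genes. IRX1 had 2.48, 3.61 and 3.91 CPM in the mutant, against 2.00, 6.83 and 8.64 CPM in wild type (log2 fold change -0.80, SE 0.52; edgeR adjusted p = 0.612), and its groups overlapped.

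Hox proteins bind DNA in complexes with Meis and Pbx, and most tested Hox genes had fold changes below 0. Of 41 matched Hox genes, 30 were tested, and 23 of these had a log2 fold change below 0, with a median of -0.50 beside 0.02 over all genes tested. No Hox gene passed the edgeR test, where 0.206% of all tested genes passed as lower. At an unadjusted p of 0.05, 4 Hox genes were lower and 0 higher, where 6.93% of all tested genes were lower, and 7 had all mutant libraries below all wild type ones, as did 10.3% of all tested genes. DESeq2 and the blocked fit each called 1 Hox gene, lower in the mutant, where they called 2.46% and 0.964% of all their genes as lower, and limma-voom called 0.

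The called gene was hoxa10b (ENSDARG00000031337, chromosome 16), whose mammalian counterpart acts in blood progenitors. It had 0.316, 0.408 and 0.336 CPM in the tet2 mutant, against 1.18, 1.65 and 1.48 CPM in wild type. Its genotypes did not overlap. A log2 fold change of -2.02 was fitted for hoxa10b (SE 0.30; edgeR adjusted p = 0.0667), and with the replicate block it was -2.01 (edgeR adjusted p = 0.042). HOXA3 (ENSDARG00000103862) had 0.779, 1.48 and 1.48 CPM in the mutant, against 2.37, 3.44 and 2.32 CPM in wild type, again with no overlap (log2 fold change -1.12, SE 0.36; edgeR adjusted p = 0.290). The most abundant per length, named after its values were seen, was HOXB8. HOXB8 averaged 5.61 ± 0.603 RPKM in the mutant and 10.4 ± 5.24 RPKM in wild type (SD, n = 3 each). The HOXB8 genotypes overlapped, since wild type library 1 (8.24 CPM) lay below every mutant library (lowest 9.22 CPM). Its log2 fold change was -0.89 (SE 0.41; edgeR adjusted p = 0.461). Summed over the list, the Hox genes had 36.9, 45.6 and 45.9 CPM in the mutant, against 42.3, 85.7 and 74.4 CPM in wild type, and the groups overlapped through wild type library 1.

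**Figure D4:**
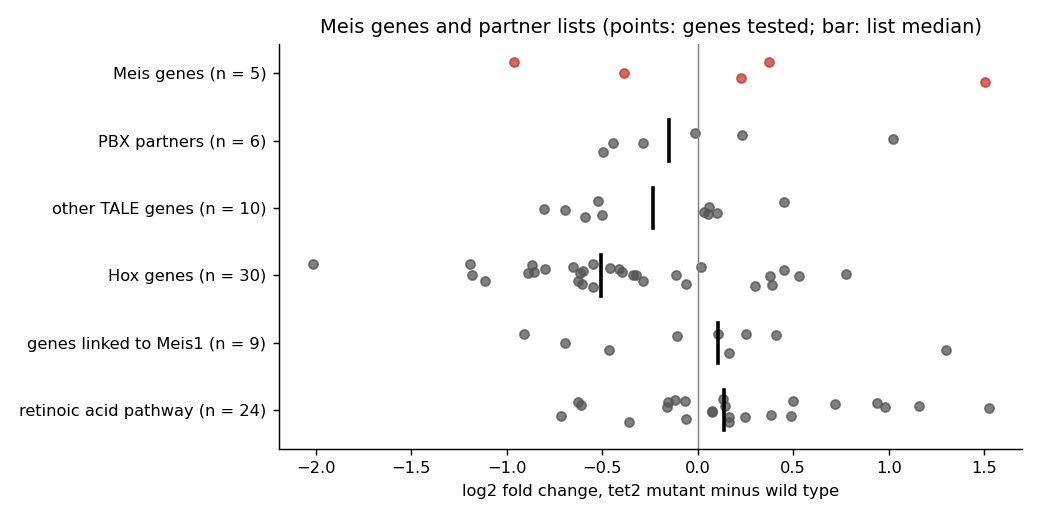
Log2 fold change (tet2 mutant minus wild type) of the 5 Meis genes and of the tested genes in 5 lists of partners and pathway genes, each point a gene and each bar a list median. The Hox median lies at -0.50, and the Pbx, other TALE, Meis1-linked and retinoic acid medians lie at -0.15, -0.23, 0.11 and 0.14.

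Genes that Meis1 is known to act on or with in mouse or human blood cells did not pass the edgeR test (0 of 9, against 2 lower at an unadjusted p of 0.05, where 6.93% of all tested genes were lower). EPAS1 (ENSDARG00000008697), a hypoxia-inducible factor that Meis1 activates in mouse blood stem cells, had 5.997, 10.2 and 8.20 CPM in the tet2 mutant, against 11.3, 18.2 and 16.2 CPM in wild type. All mutant libraries were lower, and the log2 fold change was -0.91 (SE 0.27; edgeR adjusted p = 0.256), and DESeq2, which called 2.46% of its genes lower, called this gene lower (adjusted p = 0.0438). Another gene with the symbol EPAS1 (ENSDARG00000057671), named for sharing it, was more abundant and overlapped between genotypes. It had 7.83, 18.9 and 20.7 CPM in the mutant, against 16.9, 28.5 and 31.3 CPM in wild type (log2 fold change -0.69, SE 0.40; edgeR adjusted p = 0.563). DESeq2 did not call it (adjusted p = 0.489). MYB (ENSDARG00000053666), needed for definitive blood cells, had 387, 286 and 300 CPM in the mutant, against 513, 433 and 396 CPM in wild type, without overlap (log2 fold change -0.46, SE 0.16; edgeR adjusted p = 0.343). MYB and EPAS1 (ENSDARG00000008697) were the 2 of 9 genes with every mutant library lower, as were 10.3% of all tested genes. The blood growth factor receptor flt3, named after its values were seen, averaged 13.3 CPM in the mutant and 14.4 CPM in wild type. Likewise the kinase gene SYK and the hypoxia-inducible factor HIF1A had 304 and 266 CPM in the mutant, and 271 and 247 CPM in wild type.

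Retinoic acid, made by Aldh1a enzymes and read by Rar and Rxr receptors, controls Meis genes in vertebrate embryos. Of 25 matched genes of this pathway 24 were tested, and none passed in edgeR, nor any at an unadjusted p of 0.05, nor with DESeq2 or limma-voom. Of all tested genes, 0.301% passed in edgeR, 11.9% were past the unadjusted p and 0.343% passed in limma-voom. DESeq2 called 4.13% of its genes. The median log2 fold change was 0.14, with 15 genes above 0 and 9 below. The retinoic acid synthesis enzyme ALDH1A2 (ENSDARG00000053493) had 6.19, 11.3 and 7.81 CPM in the tet2 mutant, against 18.2, 12.9 and 10.3 CPM in wild type (log2 fold change -0.71, SE 0.30; edgeR adjusted p = 0.426). The receptor gene rxrga (ENSDARG00000005593) had 17.2, 15.8 and 11.7 CPM in the mutant, against 13.3, 8.48 and 9.90 CPM in wild type (log2 fold change 0.50, SE 0.23; edgeR adjusted p = 0.476). Both overlapped between genotypes. With the replicate block, 1 of these genes passed as higher, where 1.17% of all tested genes did. Named here for that, it was the retinol dehydrogenase RDH10 (ENSDARG00000012369), with a log2 fold change of 1.06 (edgeR adjusted p = 0.0417). Its values were 16.6, 11.7 and 105 CPM in the mutant, against 6.85, 7.31 and 45.4 CPM in wild type, high in both libraries numbered 3. The other gene with the symbol RDH10 (ENSDARG00000058730) had 4.36, 9.56 and 6.54 CPM in the mutant, against 4.60, 4.78 and 5.19 CPM in wild type. Its genotypes overlapped, and it did not pass with the block (edgeR adjusted p = 0.481).

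Of the genes beside MEIS2, the one inside it was lower in all mutant libraries and the fold changes beyond it were near 0. A gene with a clone-based name, si:ch1073-425j19.2 (ENSDARG00000098711), lies inside MEIS2 on the same strand, from 52755676 to 52756618, and shares 0 exon bases with it. It had 0.379, 0.687 and 0.613 CPM in the tet2 mutant, against 1.002, 2.197 and 1.48 CPM in wild type (log2 fold change -1.47, SE 0.41; edgeR adjusted p = 0.233). All its mutant libraries were lower, as for MEIS2 and for 10.3% of all tested genes. Reads of MEIS2 introns and of this gene cannot be told apart. Beyond MEIS2, CDIN1 at 19.2 kb and SPRED1, an inhibitor of Ras signalling, at 163 kb had log2 fold changes of 0.10 (SE 0.34) and -0.12 (SE 0.14).

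Around meis3, the deacetylase gene SIRT2 at 29.7 kb had 52.6, 50.1 and 42.4 CPM in the tet2 mutant, against 58.9, 59.6 and 56.3 CPM in wild type (log2 fold change -0.27, SE 0.12, edgeR adjusted p = 0.457). SIRT2 was lower in every mutant library, as were 10.3% of all tested genes. Since meis3 was chosen on its genotype difference, nothing is read from the opposite direction. ECH1, on the other side at 63.7 kb, had a log2 fold change of -0.04 (SE 0.15). The gene spred2a begins 0.12 kb from meis1a on the opposite strand (log2 fold change 0.30, SE 0.23). The edgeR adjusted p-values of the tested neighbours of all 5 Meis genes lay between 0.233 and 0.942. Only the gene inside MEIS2 was past 0.05 before adjustment, as were 11.9% of all tested genes. The strand setting of the counting is not given in the sources used here, so reads near the ends of such close neighbours cannot be assigned with certainty.

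Candidates for a pattern like that of a Meis gene were 14157 tested genes with a descriptive symbol and a mean of at least 1 CPM. Genes with clone-based names or only an ID were left out, as were the Meis genes. Each candidate was compared by the root mean square difference of centred log2(CPM + 0.1) over the 6 libraries. The genes given for each Meis gene are the 3 most alike, so they lie below the median of all candidates by choice. MEIS2 and meis3 were chosen on their genotype difference, so genes with a like pattern also differ between the genotypes. For MEIS2 they were ESAM, an adhesion molecule of endothelial junctions (0.092), the sugar transporter family gene slc2a11b (0.093) and ENPP6, a choline phosphodiesterase (0.104), beside a median of 0.589 over all candidates. ESAM had 2.46, 3.39 and 2.71 CPM in the tet2 mutant, against 4.37, 6.45 and 5.44 CPM in wild type. For meis3 they were ftr73 (0.141), PPIC (0.160) and herc56.4 (0.177), beside a median of 0.766. The finTRIM family gene ftr73 had 7.70, 10.4 and 10.8 CPM in the mutant, against 3.60, 3.25 and 2.72 CPM in wild type.

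For meis1b the nearest patterns were those of the ubiquitin-activating enzyme UBA6 (0.049), DLGAP4 (0.065) and CPLANE2 (0.066), for meis1a those of DIPK2A (0.063), MARVELD2 (0.085) and NR4A1 (0.110), and for meis2b those of pip5k1ca (0.138), ccdc181 (0.154) and AKT2 (0.161). Such likeness is a description over 6 libraries that share depth and make-up.

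Summed markers of several other cells in the suspension were also lower in the mutant libraries. Skeletal muscle markers summed to 95.6, 42.5 and 86.4 CPM in the tet2 mutant, against 249, 289 and 214 CPM in wild type, with 11 of 11 tested genes below 0 (edgeR called 0 of them, 10 were past an unadjusted p of 0.05, and DESeq2 called 9, limma-voom 1 and the replicate block 4). Kidney tubule markers summed to 356, 506 and 402 CPM in the mutant, against 616, 952 and 714 CPM in wild type. Of these 13 genes 11 were below 0, and edgeR called 1 of them lower, the transporter SLC5A12, against 7 with the block and 7 with DESeq2. SLC5A12 had 15.6 ± 2.55 CPM in the mutant and 45.3 ± 6.64 CPM in wild type (SD, n = 3 each; log2 fold change -1.54, SE 0.17; edgeR adjusted p = 0.0405). These sums lay lower in every mutant library, as MEIS2 did. Over all tested genes, 6.93% were lower at an unadjusted p of 0.05, and the median log2 fold change was 0.02. As lower, edgeR called 0.206%, DESeq2 2.46%, limma-voom 0.233% and the replicate block 0.964% of their genes.

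Stroma summed to 383, 531 and 609 CPM in the tet2 mutant, against 693, 710 and 774 CPM in wild type, with 9 of 12 genes below 0. Endothelial markers summed to 370, 565 and 490 CPM in the mutant, against 556, 684 and 650 CPM in wild type, with 11 of 11 genes below 0 and overlapping sums. Stem and progenitor markers, the cells in which Meis1 is best known, summed to 277, 232 and 210 CPM in the mutant, against 298, 299 and 285 CPM in wild type, without overlap, and 7 of 9 genes were below 0. Of the 9, 4 had all mutant libraries lower, as did 10.3% of all tested genes, and the others overlapped. TAL1, named after its values were seen, was the largest part of the sum, with means of 89.3 CPM in the mutant and 114 CPM in wild type. No stroma, endothelial or stem and progenitor marker passed in edgeR, against 4, 4 and 2 lower and 2, 0 and 0 higher at an unadjusted p of 0.05, and DESeq2 called 2, 2 and 0 of them lower. Of all tested genes, 6.93% were lower and 5.0% higher at that unadjusted p, and DESeq2 called 2.46% of its genes lower.

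Erythroid markers, of a main marrow lineage, summed to 3771, 3131 and 2311 CPM in the tet2 mutant, against 3525, 4354 and 3999 CPM in wild type. These sums overlapped, with 8 of 8 tested genes below 0 and a median log2 fold change of -0.39. EdgeR called 0 of the erythroid genes, 3 were lower at an unadjusted p of 0.05, and DESeq2 called 1. Of all tested genes, 6.93% were lower at that unadjusted p, and DESeq2 called 2.46% of its genes lower. Liver markers, with 9 of 9 genes above 0 and 0 called by edgeR, at an unadjusted p of 0.05 or by DESeq2, summed to 17.1, 1383 and 57.1 CPM in the mutant, against 34.8, 457 and 91.3 CPM in wild type, high in both libraries numbered 2. As higher, edgeR called 0.0959% of all tested genes, 5.0% were past the unadjusted p, and DESeq2 called 1.67% of its genes.

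Egg and germ cell markers, with 18 of 18 genes above 0, summed to 595, 381 and 3642 CPM in the tet2 mutant, against 13.4, 12.5 and 1019 CPM in wild type, and the groups overlapped through wild type library 3. EdgeR and DESeq2 called 0 of these egg and germ cell genes, and 0 were past an unadjusted p of 0.05. As higher, edgeR called 0.0959% of all tested genes, 5.0% were past that unadjusted p, and DESeq2 called 1.67% of its genes. The replicate block called 1 as higher, where it called 1.17% of all tested genes as higher. Markers of neurons and glia, where meis genes are active in embryos, stayed between 17.1 and 30.7 CPM in the mutant and between 16.8 and 26.3 CPM in wild type. Smooth muscle summed to 726, 547 and 518 CPM in the mutant, against 589, 438 and 446 CPM in wild type. Thrombocyte markers summed to 314, 288 and 243 CPM in the mutant, against 330, 309 and 296 CPM in wild type. Both overlapped, as did the neutrophil, macrophage, B cell, T cell and multiciliated sums. Among the 13 tested macrophage genes, 5 were above 0 and 8 below, and edgeR called 0. DESeq2 called 3 macrophage genes and 1 smooth muscle gene lower, where it called 2.46% of its genes lower. The replicate block called 1 macrophage gene lower, where it called 0.964% of all tested genes lower. No matched marker of any of the 16 cell lists was at 0 counts in all 6 libraries. The part of these cells in the lower MEIS2 and the higher meis3 was not tested, and it cannot be told from marrow RNA which cells carried the transcripts.

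**Figure D5:**
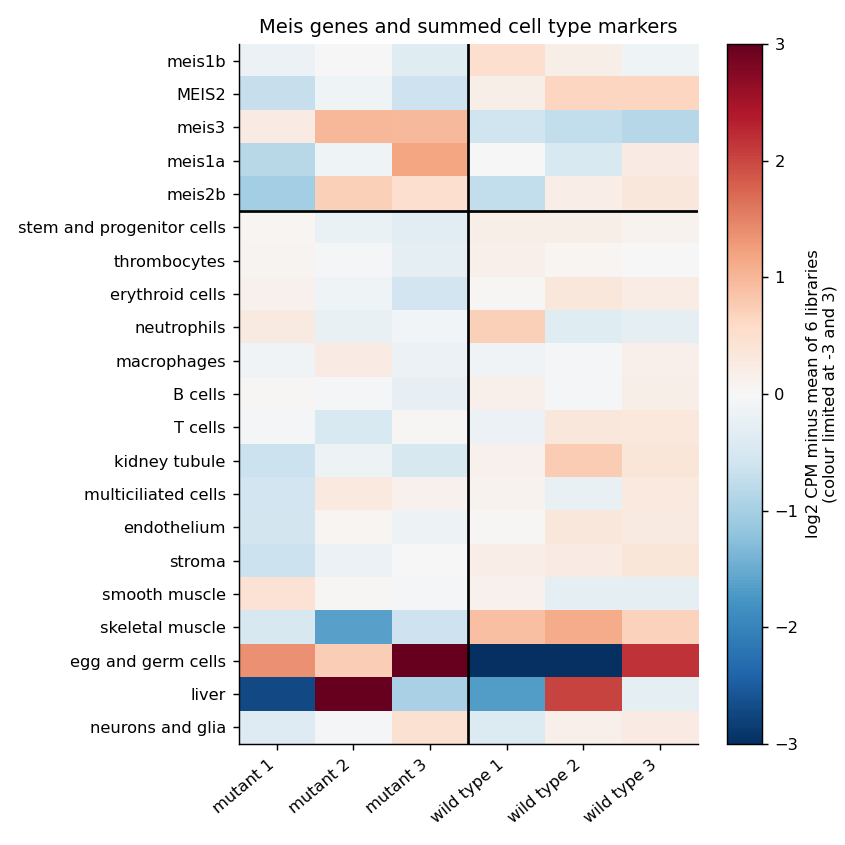
Log2 CPM of the 5 Meis genes (above the line) and of the summed markers of 16 cell lists (below it), each row minus its mean over the 6 libraries, with tet2 mutant libraries left and wild type libraries right. The colour is limited at -3 and 3. Skeletal muscle, kidney tubule, stroma and stem and progenitor sums are lower in every mutant library, as is MEIS2, and egg markers are highest in mutant library 3.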

How the data were processed

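RNA of 6 kidney marrow suspensions was sequenced. The authors deposited raw counts per Ensembl gene. Trimmomatic 0.36, STAR 2.5.2b and the build GRCz10 are named in the submitters' processing notes. Which tool counted the reads, with which strand setting and annotation, is not given in the sources used here. A name table gave symbols for 25752 of 31484 gene IDs (81.8%). A RefSeq table (assembly GRCz12tu) supplied synonyms only.

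Counts were tested in R 4.3.3 with edgeR 4.0.16 (filterByExpr by genotype, TMM factors, two-sided quasi-likelihood F test, Benjamini-Hochberg over the 21893 genes tested, threshold 0.05). SE is the absolute log2 fold change over the root of F. DESeq2 1.42.0 and limma 3.58.1 (voom) were alternatives. Only the edgeR test, without and with the replicate block, was checked on simulated data, in which the libraries were independent. DESeq2, limma-voom and the sign-flip test were not checked in this way. A floor of 3 counts equals 0.0609 to 0.0727 CPM, for counting error only. Libraries of 1 genotype differed beyond sampling noise (chi-square per degree of freedom 51.9 to 154).

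The Meis genes and all gene lists were chosen with earlier results of these data known. Beside the Meis genes, the text names the 3 most alike genes of each Meis gene and some of the genes that overlap or flank it. It names up to 4 passing members of a partner or pathway list, or the 2 with the smallest p where none passed. In the cell lists a member was named by this rule only where it passed. Exceptions are marked in place. The labels number the libraries 1 to 3 in each genotype without saying what a number shares. Deviations from the genotype mean over 15318 genes gave r = 0.403, 0.554 and 0.699 for the same numbers 1, 2 and 3, and -0.525 to 0.234 for different ones. The numbers may thus pair the libraries, as read from the data alone. The main edgeR fit, DESeq2 and limma-voom had no block, so their SE and p-values leave such a pairing out. Results that use it are marked as with the block or by replicate number. Genes are not independent replicates, and deviations within a genotype sum to 0. No sequence is shown.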

Additional observations from a re-analysis of the deposited data

How the results depend on the processing

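The count of genes passing was 66 with all libraries and 59 to 75 with DESeq2 size factors, either other filter or limma-voom. It was 999 with DESeq2, 36 with library totals only, 468 with the replicate block and 312 without both libraries numbered 3. Leaving out 1 library gave 2 to 15. Genes higher in the mutant made up 31.8% of the calls, 54.9% with the block and 79.8% without the libraries numbered 3. The fold changes of MEIS2, meis3 and meis1b kept their sign in 14 of 14 alternatives each, with block values of -0.97, 1.47 and -0.37. They also stayed within 1 SD, the pooled SD of log2 CPM between libraries of a genotype. MEIS2 and meis3 were chosen for this difference and did not overlap between genotypes. Leaving libraries out could thus hardly reverse their sign, and nothing is read from it. The fold change of meis1a reversed to -0.40 without mutant 3 and -0.24 without both libraries numbered 3, and reached 0.72 at most with 1 library left out. That of meis2b reversed to -0.080 without mutant 2 and -0.048 without wild type 1, reached 0.60 at most, and the gene left the table under the strict filter. Hox genes had 1 call with DESeq2 and 1 with the block, Meis1-linked genes 1 with DESeq2, and retinoic acid genes 1 with the block. The block changed no other list count of partner genes. The causes were not tested. With 1 library left out, the level gap (log2) ran from 1.40 to 1.66 for meis1b over MEIS2, 1.97 to 2.59 for MEIS2 over meis3, and 0.98 to 1.29 for meis1a over meis2b, none past the threshold because 5 libraries allow no p under 0.0625. With signs flipped by replicate number as a block, chosen after seeing the data, these gaps were the same (1.503, 2.27 and 1.12) but none passed, because 3 numbers allow no exact p under 0.25. The gap of meis3 over meis1a ran from -0.072 to 0.37, and was -0.064 without mutant 1, -0.072 without mutant 2 and -0.51 in wild type alone. At 32 to 143 counts per library for meis3 and meis1a, and 15 to 49 for meis2b, depth limits these genes.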
